A study of Mus musculus with 12 samples.

Results

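The 6 genes described here encode variants of the core histone H2A: H2afv and H2afz, H2afx, H2afj, and H2afy and H2afy2. They were taken by symbol from the 53392 gene identifiers of the deposited tables, and all 6 were found. H2afv was chosen by its measured difference between the 2 maxillary process groups, and the other 5 as its gene family, so the members' values in that comparison are a description that supports nothing. Related genes are counted there with the fit over all genes. The palatal shelf comparison did not choose the members and is tested.

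RNA was sequenced from facial tissue of 129S4 mouse embryos after a digestion meant to remove the ectoderm, in 12 libraries that form 4 groups of 3. At embryonic day E13.5 the tissue was palatal shelf, from Pdgfra+/+ (wild-type) embryos and from PdgfraPI3K/PI3K embryos. The PI3K allele is a knock-in that removes the binding sites for the kinase PI3K from the receptor PDGFRα. At E11.5 the tissue was maxillary process, the swelling from which the palatal shelf grows. Both maxillary groups were homozygous for a floxed allele of the splicing regulator Srsf3 (Srsf3 fl/fl). The controls lacked the Wnt1-Cre transgene (Wnt1-Cre+/+), and the embryos labelled Srsf3 cKO carried it (Wnt1-Cre+/Tg). Wnt1-Cre expresses a recombinase under a promoter active in the dorsal neural tube and premigratory neural crest, and other cells of the tissue keep the floxed allele intact.

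Nucleosomes wrap DNA around an octamer of histones, and most H2A is made in S phase from clustered genes whose mRNAs end in a stem-loop. Variant H2A genes lie outside those clusters, can make polyadenylated mRNA and can supply chromatin outside S phase. H2A.Z, encoded by H2afv and H2afz, is placed at promoters and enhancers by the SRCAP and TIP60 complexes. H2A.X, encoded by H2afx, is phosphorylated beside DNA breaks. MacroH2A, encoded by H2afy and H2afy2, carries a large additional domain and is enriched in silent chromatin, including the inactive X chromosome. H2afj encodes H2A.J, a close relative of the S-phase form.

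The annotation (GENCODE M21, mouse build GRCm38) places H2afv (ENSMUSG00000041126.16, now H2az2) on chromosome 11 from 6427229 to 6444443 on the minus strand. H2afz (ENSMUSG00000037894.13, now H2az1) lies on chromosome 3 from 137864487 to 137866922, plus strand. H2afx (ENSMUSG00000049932.3, now H2ax) lies on chromosome 9 from 44334694 to 44336077, plus strand. H2afj (ENSMUSG00000060032.6, now H2aj) lies on chromosome 6 from 136808244 to 136810074, plus strand. H2afy (ENSMUSG00000015937.15, now Macroh2a1) lies on chromosome 13 from 56073619 to 56136361, minus strand. H2afy2 (ENSMUSG00000020086.6, now Macroh2a2) lies on chromosome 10 from 61738665 to 61784147, minus strand. All are protein-coding, and no pair of them shares a chromosome.

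Because the 2 H2A.Z proteins are nearly identical, the first question was whether their reads can be told apart. The coding sequences of transcripts H2afv-202 and H2afz-201 are both 384 bases long and match at 304 positions (79.2%), with no identical run longer than 14 bases. The first 150 coding bases of each are shown because they make this visible. They are spliced, and their ends lie at chr11:6433769-6444339 (minus strand) and chr3:137864694-137865588 (plus strand). Capitals mark the 34 positions at which they differ.
H2afv-202: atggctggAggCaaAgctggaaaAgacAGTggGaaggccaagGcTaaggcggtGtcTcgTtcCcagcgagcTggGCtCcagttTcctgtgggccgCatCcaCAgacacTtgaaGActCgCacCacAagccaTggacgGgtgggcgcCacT
H2afz-201: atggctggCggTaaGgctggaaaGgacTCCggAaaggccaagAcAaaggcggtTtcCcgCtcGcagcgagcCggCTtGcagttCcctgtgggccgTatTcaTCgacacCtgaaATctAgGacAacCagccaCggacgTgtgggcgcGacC
The annotated H2afv transcripts contain 1631 distinct words of 31 nucleotides, of which 0 occur in H2afz and 16 (0.981%) occur in any other gene. The other members share more sequence with other genes. H2afz shares 18.7% with the processed pseudogene Gm8203, which was itself assigned 56.8 ± 6.86 CPM in wild-type palatal shelf (SD, n = 3). CPM are counts scaled to a common library total with TMM factors. H2afy2 shares 15.8% with the pseudogene H2afy3, assigned at most 0.0414 CPM on average in any group. H2afx shares 8.86% with clustered H2A genes and H2afj shares 7.06% with other genes, 25 words being common to both. How the shared words divide reads among these genes was not tested. H2afy overlaps the antisense gene Gm47071 and H2afy2 overlaps the opposite-strand gene Aifm2, and strand use in counting is not given in the sources used here.

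Library totals ran from 30.5e6 to 37.4e6 estimated counts in the palatal shelf and from 15.9e6 to 27.9e6 in the maxillary process. H2afj was the least covered member, with 425 to 1055 counts per library, and H2afv had 1348 to 5128. No 2 libraries of a group were repeats of each other: chi-square over degrees of freedom was 11.3 or more for each pair. Facial mesenchyme markers such as Prrx1 and Twist1 were all detected, with summed levels of 10715 to 18444 CPM in the palatal shelf and 4704 to 8024 CPM in the maxillary process. Ectoderm markers summed to 423 to 1007 CPM in the palatal shelf and to 1.98 to 23.7 CPM in the maxillary process. Ectodermal transcripts thus remained in the palatal libraries, and their part in differences between the tissues was not tested. Srsf3 had 597, 578 and 547 CPM in controls, against 468, 669 and 622 CPM where the label is Srsf3 cKO, so its gene total did not separate the groups. A gene total need not fall when part of its exons is deleted, and directions below rest on the library labels.

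Transcript levels per length are given in TPM (length-corrected and scaled to a fixed total per library). In wild-type palatal shelves H2afz was the highest member with 552 ± 42.5 TPM, followed by H2afx with 457 ± 89.6 TPM (SD, n = 3 each). H2afy followed with 296 ± 45.9 TPM, H2afy2 with 258 ± 32.9 TPM and H2afv with 249 ± 45.7 TPM. H2afy lay below H2afx without overlap, while H2afy overlapped H2afy2 and H2afy2 overlapped H2afv. H2afj was lowest with 70.5 ± 1.75 TPM and did not overlap H2afv. H2afz and H2afx overlapped each other as well. The same order was found in control maxillary processes, where H2afz and H2afx no longer overlapped, except that H2afv (450 ± 37.6 TPM) stood before H2afy2 (414 ± 15.2 TPM), the pair overlapping. There H2afz had 1152 ± 169 TPM, H2afx 826 ± 12.4, H2afy 525 ± 32.6 and H2afj 68.5 ± 3.89 TPM. Gm8203, the pseudogene that shares sequence with H2afz, had 463 ± 40.7 TPM in wild-type palatal shelves and 693 ± 137 TPM in maxillary controls. Ranks were taken from the mean TPM over all 6 libraries of a tissue, both genotypes together. By these all members but H2afj were among the 527 highest of 16525 genes tested in the palatal shelf. In the maxillary process they were among the 473 highest of 14254.

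Set side by side, the summed level of the 6 genes was 1882 ± 233 TPM in wild-type palatal shelves and 3436 ± 159 TPM in control maxillary processes (SD, n = 3 each). Of the 6 members, 5 were higher in every control maxillary library than in every wild-type palatal library, by up to 2.09-fold for H2afz. The share of all genes that separate the tissues in this way was not counted, so nothing particular to the members is read from that number. H2afj was the exception, with a ratio of 0.972 and overlapping groups. Cell cycle genes, a list of 20 that includes Mki67 and Top2a, summed to 5043 to 5465 CPM in the maxillary controls and 2594 to 3367 CPM in the wild-type palatal shelves. The tissues come from separate tables and differ in stage, site and genotype at once, so these cannot be told apart and no test was made. In bulk tissue, fewer cells of a type and less RNA per cell cannot be told apart either.

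**Figure D1:**
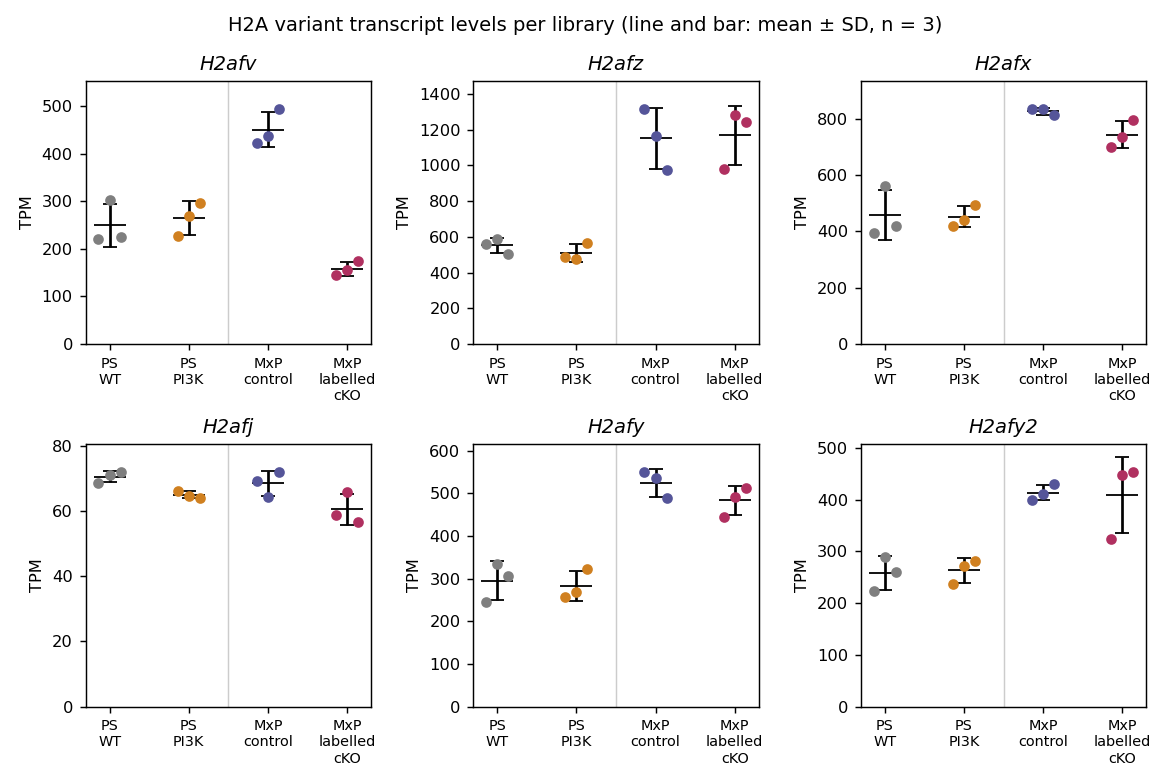
Transcript level (TPM, vertical axes from 0) of each H2A variant gene in every library, by group (PS, palatal shelf at E13.5; MxP, maxillary process at E11.5). Points are libraries and bars are the mean ± SD of 3. H2afv lies between 145 and 174 TPM in the libraries labelled Srsf3 cKO and between 422 and 493 TPM in their controls.

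H2afv was at 35.5% of its control level in the maxillary processes labelled Srsf3 cKO, while the other H2A.Z gene stood near its control level. The controls had 185, 197 and 209 CPM of H2afv, and the labelled libraries had 69.6, 63.1 and 77.2 CPM. All 3 labelled libraries lay below all 3 controls, which is the difference by which H2afv was chosen. The groups did not overlap for 18.1% of all genes tested. The fitted log2 fold change of H2afv was -1.49 (standard error 0.10). In TPM the group means were 450 ± 37.6 and 158 ± 14.9 (SD, n = 3 each). Only 132 of 14254 genes tested had a lower log2 fold change. Among the 2512 genes with at least 100 CPM in the controls there were 4, named here after their values were seen: Barx1, Col6a1, Col6a2 and Tmem26. In the 12 other settings tried, the H2afv value ran from -1.56 to -1.42.

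For H2afz the controls gave 667, 606 and 466 CPM and the labelled libraries 510, 672 and 623 CPM. The groups overlapped over most of their range, and the fitted value was 0.05 (standard error 0.16) on the log2 scale. The pseudogene Gm8203 gave 77.5 ± 18.2 CPM in controls and 85.8 ± 17.7 CPM in labelled libraries (SD, n = 3 each) with overlapping groups. In TPM it had 693 ± 137 and 752 ± 160, and it is not counted in the H2A.Z sum below. H2afv made up 24.3%, 27.3% and 33.5% of the summed TPM of both H2A.Z genes in the controls and 12.9%, 10.8% and 12.3% in the labelled libraries. The sum itself was 1737, 1599 and 1470 TPM in the controls and 1124, 1437 and 1420 TPM in the labelled libraries. The lowest control sum lay above the highest labelled sum in TPM, but in CPM the sums overlapped, at 675 to 852 in controls and 580 to 736 in labelled libraries.

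**Figure D2:**
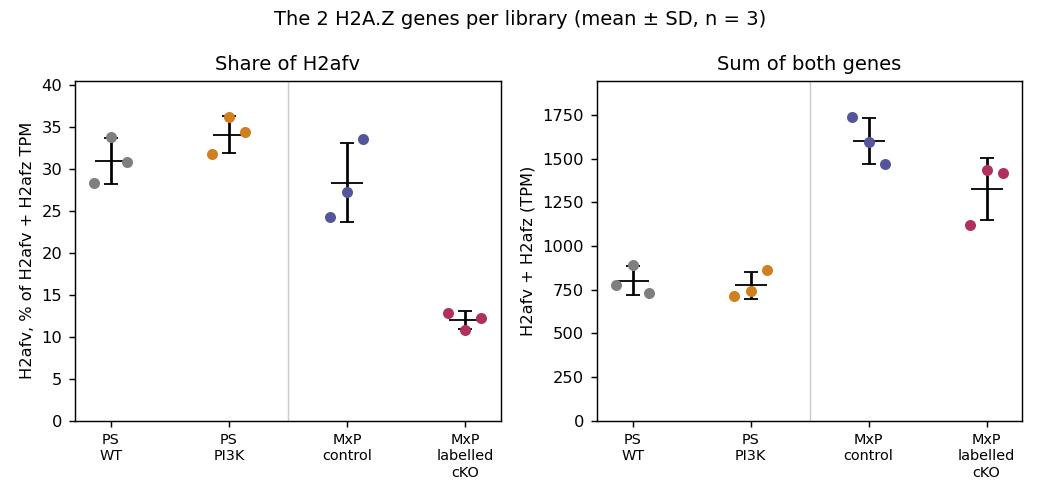
Left, H2afv as a percentage of the summed TPM of H2afv and H2afz in each library; right, that sum in TPM, by group (PS, palatal shelf; MxP, maxillary process). Points are libraries, bars are mean ± SD of 3, and the labelled cKO libraries have shares of 10.8% to 12.9% against 24.3% to 33.5% in their controls.

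The gene record of H2afv was also read. In the RefSeq gene table for GRCm38.p6, the synonyms of H2afv (H2az2) include Tg(Wnt1-cre)11Rth and Wnt1-Cre, names of a transgenic line and not of a histone. Of all mouse genes in that table, 2 list a Wnt1-Cre transgene in this way, the other being the cell cycle transcription factor E2f1 on chromosome 2, with Tg(Wnt1-cre)2Sor. The labels here name the transgene Wnt1-Cre without a line. For E2f1 the controls gave 47.8, 49.4 and 43.5 CPM and the labelled libraries 35.4, 48.5 and 48.7 CPM, so its groups overlapped. It was looked at only after the record had been read. Every labelled library carries the transgene and every control lacks it, so presence of the transgene and deletion of Srsf3 cannot be told apart in the H2afv result.

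None of the 6 nearest protein-coding genes around H2afv had a difference like its own. Ppia, which encodes cyclophilin A and lies 7412 bases away on the lower-coordinate side, had 858 ± 104 CPM in controls and 874 ± 47.9 CPM in labelled libraries (SD, n = 3 each). Zmiz2 and Ogdh, farther out on that side at 21071 and 70587 bases, had log2 fold changes of -0.05 (standard error 0.07) and -0.03 (0.11). On the other side Purb, a nucleic acid-binding protein gene at 23156 bases, gave 146, 133 and 136 CPM in controls, and 153, 164 and 151 CPM with the cKO label. Its groups did not overlap and its log2 fold change was 0.17 (0.08), opposite in sign to that of H2afv. Myo1g at 62105 bases was near the limit of detection, with 0.725 and 1.70 CPM, and Ccm2 at 102444 bases had a value of -0.04 (0.14). In the palatal shelf the same 6 genes had values from -0.19 for Ccm2 to 0.00 for Ogdh.

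**Figure D3:**
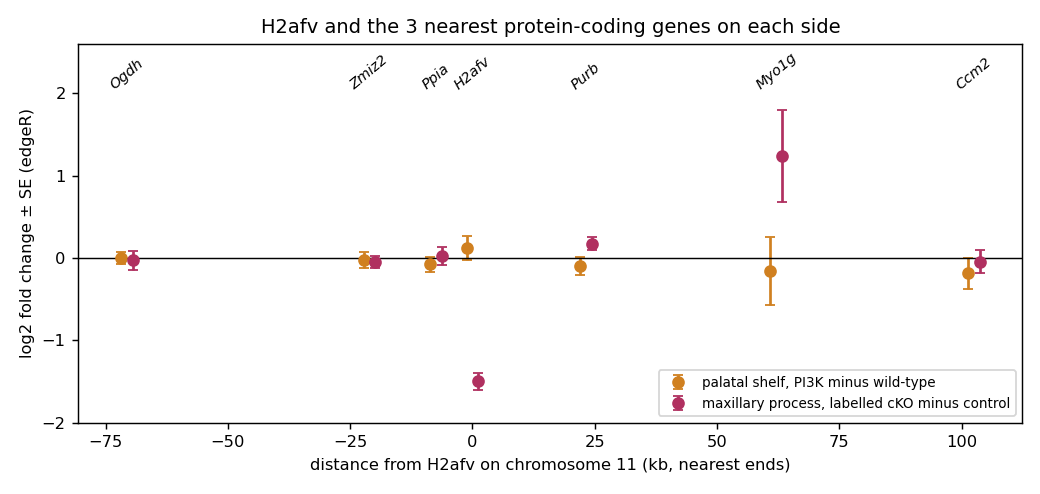
Log2 fold change ± SE (vertical axis) of H2afv and its 3 nearest protein-coding genes on each side, against distance from H2afv in kb (horizontal axis), in both comparisons. H2afv lies at -1.49 in the maxillary process, where its neighbours run from -0.05 to 1.24, and the widest bars belong to Myo1g, the gene with the lowest counts.

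Of the 4 remaining members in the maxillary process, H2afj was the one whose groups did not overlap. Controls gave 30.95, 29.8 and 29.8 CPM of H2afj, and the labelled libraries 25.0, 25.3 and 23.3 CPM. The fitted difference was -0.30 (standard error 0.10) on the log2 scale. On log2(TPM + 1) it was -0.18, and the TPM ranges of 64.3 to 72.0 and 56.8 to 66.0 overlapped. For H2afx the controls gave 617, 615 and 560 CPM and the labelled libraries 526, 552 and 588 CPM, -0.11 on the log2 scale (standard error 0.09), with overlapping groups. H2afy had 410 ± 42.1 and 399 ± 29.3 CPM, and H2afy2 501 ± 7.65 and 512 ± 90.1 CPM (SD, n = 3 each). The first labelled library was low in H2afy2, with 408 CPM against 566 and 562 in the other two. For H2afz, H2afy and H2afy2 the sign of the log2 fold change changed between the settings tried, with ranges of -0.07 to 0.17, -0.12 to 0.02 and -0.05 to 0.17. Of the 6 members, 1 (H2afv, lower, the gene this comparison chose) was past a false discovery rate (FDR) of 0.05 in edgeR. It was past it in 11 of the 12 other settings too, but not when control library 2 was omitted. Of all genes tested 0.0842% passed, 0.0561% higher and 0.0281% lower. The groups did not overlap for 2 members, both lower, against 18.1% of all genes, 8.76% higher and 9.37% lower. The log2 fold change was above 0 for 2 members and for 50.7% of all genes. Since this comparison chose H2afv, nothing is read from those counts. The median log2 fold change was -0.07 over the 6 members and 0.00 over all genes.

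**Figure D4:**
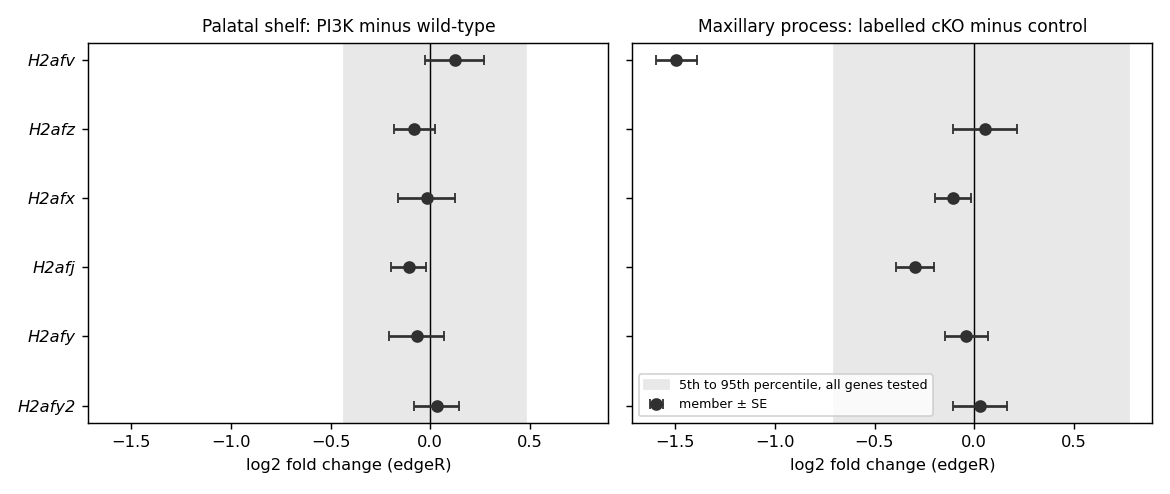
Log2 fold change from edgeR with its standard error (horizontal axes) for each H2A variant gene, in the palatal shelf (left) and the maxillary process (right); the grey band spans the 5th to 95th percentile of all genes tested. H2afv in the maxillary process, at -1.49, is the 1 value outside the band.

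The palatal shelf comparison asked whether the same genes differ with the PI3K allele of Pdgfra. None of the 6 passed the test. H2afv had 99.7, 137 and 102 CPM in wild-type and 107, 127 and 136 CPM in PI3K libraries, which is 0.12 on the log2 scale (standard error 0.15, 95% interval -0.23 to 0.47). The ranges lay largely on top of each other. H2afz had 276, 277 and 235 CPM against 243, 231 and 273 CPM, a log2 fold change of -0.08 (interval -0.32 to 0.16). The 95% intervals of the other members were -0.35 to 0.32 for H2afx, -0.39 to 0.25 for H2afy and -0.24 to 0.30 for H2afy2. H2afj had 29.4, 29.7 and 28.8 CPM in wild-type and 28.2, 27.1 and 26.2 CPM in PI3K libraries. Its groups did not overlap, as was the case for 6.23% of all genes tested (3.12% higher and 3.12% lower), and its log2 fold change was -0.11 with an interval from -0.31 to 0.10. By edgeR's quasi-likelihood test 0 of the 6 passed an FDR of 0.05, all with an adjusted p of 0.9997, and 0 had an unadjusted p under 0.05. The log2 fold change was above 0 for 2 members and for 48.0% of all genes. Over all genes 0 passed (0%) and 354 had an unadjusted p under 0.05 (2.14%), and DESeq2 called 4 genes, none of them a member. The H2afv share of H2A.Z TPM was 28.3%, 33.8% and 30.8% in wild-type and 31.8%, 36.1% and 34.3% in PI3K libraries. The difference of 3.11 percentage points had a p of 0.2 by a two-sided exact permutation test, whose smallest possible p with 3 against 3 is 0.1.

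The tables hold gene totals, but the count divided by the TPM gives an effective length, which moves when the mix of long and short transcripts moves. It is given on the log2 scale relative to the median gene of the library. H2afx, with 1 annotated transcript of 1384 bases, had -1.03 ± 0.006 in maxillary controls, and H2afy2, with 1 of 2175 bases, had -0.28 ± 0.004 (SD, n = 3 each). H2afv lay lower, at -1.75 ± 0.03, although its longer transcript has 1633 bases. Its other transcript has 519 bases. In the labelled libraries H2afv had -1.66, -1.91 and -1.76, on both sides of the controls at -1.78, -1.74 and -1.73. The shift was -0.03, with a standard error of 0.07.

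H2afj and H2afy had groups that did not overlap in effective length in the maxillary process, against 11.8% of the 11002 genes measured, of which 0.00909% passed an FDR of 0.05. The H2afj shift was -0.16 (standard error 0.04), between annotated transcripts of 1831 and 577 bases, and it turned to 0.10 when not taken relative to the median gene. H2afy makes alternatively spliced forms of macroH2A that differ in their ligand-binding domain. Its coding transcripts H2afy-201 and H2afy-202 have 2046 and 1933 bases, a log2 ratio of 0.08. They are 2 of 8 annotated transcripts, and the non-coding ones run from 547 to 4018 bases. Which of these forms moved its effective length was not tested. H2afy had -0.91, -0.93 and -0.92 in controls and -0.89, -0.85 and -0.90 in labelled libraries, a shift of 0.04 (standard error 0.02). In the palatal shelf 0 of 6 members passed an FDR of 0.05 by limma, where 0.00775% of 12907 genes did, and all 6 had an adjusted p of 0.998. The largest palatal shift among members was 0.04 for H2afv, whose groups did not overlap there (-1.66 to -1.61 against -1.60 to -1.58), as for 6.36% of genes. These values cannot say which exons were used.

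The machinery that places and reads H2A variants was described from lists of related genes. Of 22 genes for the deposition and removal of H2A.Z, including the SRCAP and TIP60 subunits and the chaperone Anp32e, 0 passed an FDR of 0.05 in either tissue (edgeR). Over all genes 0.0842% passed in the maxillary process. At an unadjusted p under 0.05 there were 0 of the 22 in either tissue, against 12.2% of all genes in the maxillary process and 2.14% in the palatal shelf. The list's median log2 fold change was -0.02 in the maxillary process, with 10 above and 12 below 0, and -0.01 in the palatal shelf. The extremes were Actr6, a subunit of the SRCAP complex, with 11.8 ± 1.15 CPM in controls and 13.8 ± 1.65 CPM in labelled libraries, and Meaf6, a subunit of histone acetyltransferase complexes, with 40.5 ± 1.96 and 35.3 ± 3.44 CPM (SD, n = 3 each). The largest difference in either direction was therefore 0.23 on the log2 scale, small beside that of H2afv.

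The 16 genes of the DNA damage response around H2A.X also had 0 past the threshold in either tissue, with medians of 0.01 in the maxillary process and 0.02 in the palatal shelf. Atm, the kinase that phosphorylates H2A.X, gave 65.9, 55.6 and 69.7 CPM in controls, and 73.7, 74.8 and 74.7 CPM with the cKO label, a log2 fold change of 0.22 (standard error 0.10). The groups did not overlap, and 8.76% of all genes tested were higher without overlap in that comparison. Rnf8, a ubiquitin ligase recruited to breaks, had the lowest value with -0.16 (0.10). Among 14 histone chaperones 0 passed, with a median of 0.06 in the maxillary process (11 above 0) and -0.02 in the palatal shelf (5 above 0). Nap1l1, a chaperone of H2A and H2B, gave 787, 727 and 626 CPM in controls, and 882, 870 and 815 CPM with the cKO label. It was also higher in every PI3K library (558 to 586 CPM) than in every wild-type library (512 to 521 CPM), with an adjusted p of 0.9997 in edgeR. Of all genes tested, 8.76% in the maxillary process and 3.12% in the palatal shelf were higher without overlap. Nap1l1 is named as the extreme of its list, so nothing is read from this. Ipo9, which imports H2A and H2B into the nucleus, had the lowest chaperone value with -0.11 (0.10).

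Of the other replacement and linker histones, 0 of 8 tested passed the threshold in the maxillary process. All 8 had a log2 fold change below 0 and the median was -0.19, against 0.00 over all genes, of which 50.7% were above 0. The groups did not overlap for 3 of the 8, all lower, against 9.37% of all genes, and 2 of the 8 had an unadjusted p under 0.05. One was H1f0, a linker histone of slowly dividing cells, with 316, 403 and 337 CPM in controls, against 281, 233 and 293 CPM with the cKO label. The value nearest to 0 was that of Cenpa, the centromeric H3 variant, at -0.01 (standard error 0.10). In the palatal shelf 7 of 9 were above 0 with a median of 0.15. There H1f0 had 434, 790 and 414 CPM in the PI3K libraries, so the second of them carries most of its difference from the wild-type mean of 443 ± 24.2 CPM. Cell cycle genes had medians of 0.08 in the maxillary process (16 of 20 above 0) and -0.00 in the palatal shelf, with 0 past the threshold in either.

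**Figure D5:**
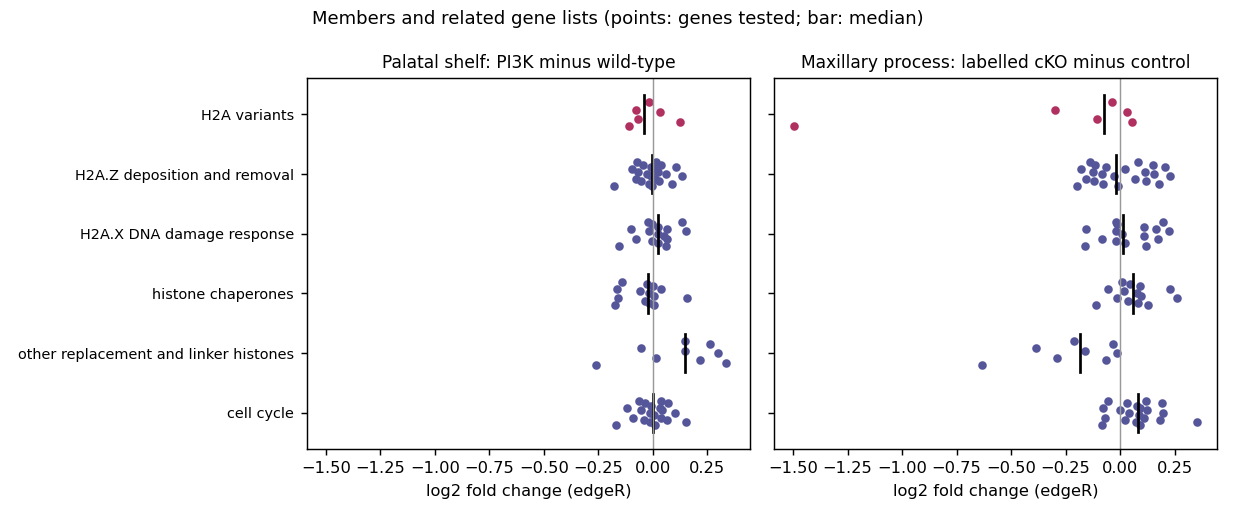
Log2 fold change (horizontal axes) of each gene tested in 5 related lists and of the 6 H2A variants, in the palatal shelf (left) and the maxillary process (right), with bars at the medians. H2afv at -1.49 is separated from every other point, and the list medians lie between -0.19 and 0.15.

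The 18 clustered, replication-dependent H2A genes were scarce in these polyA-selected libraries. Their summed level was 29.3 to 53.7 CPM in the palatal shelf and 26.4 to 40.8 CPM in the maxillary process, below H2afv alone. Hist3h2a was the most abundant, with 17.1 CPM in wild-type palatal shelves. Hist2h2aa1 had means of 2.09 and 0.0851 CPM and Hist2h2aa2 of 0 and 0.868 CPM in the maxillary groups. How reads divide among near-identical copies was not tested, so values of single copies are uncertain. These 3 genes were chosen after their values were seen. Of 21 germline H2A.B and H2A.L genes 16 were matched, and these were at 0 counts in every maxillary library. In the palatal shelf 15 of the 16 were at 0 in every library, and their summed level was at most 0.0959 CPM.

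Of the markers of other cell types, 0 on any list passed an FDR of 0.05 in the maxillary process. Endothelial markers summed to 360 to 377 CPM in controls and 483 to 931 CPM in labelled libraries, and 9 of 10 had groups that did not overlap, all higher, against 8.76% of all genes. The summed levels of ectoderm markers (1.98 to 10.0 and 11.1 to 23.7 CPM) and macrophage markers (22.9 to 26.4 and 28.9 to 56.1 CPM) did not overlap either. Those of red blood cell markers overlapped, at 4174 to 7148 and 4431 to 12309 CPM. Overlap was also found for neuron and glia markers (74.1 to 199 and 54.1 to 80.7 CPM), muscle markers (4.05 to 12.3 and 11.2 to 20.9 CPM) and facial mesenchyme markers (5172 to 8024 and 4704 to 5556 CPM). No marker on these lists was at 0 in all 6 libraries. Their part in the values of H2afv, H2afj and the histone lists was not tested.

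The genes whose profile lay nearest to that of H2afv were found by centring log2 CPM within each table and taking the root mean square distance over the 12 libraries, among 10604 genes with at least 5 CPM in both tables. Among the nearest were Map2, a microtubule-associated protein gene, at 0.19, and Meis1, a homeobox transcription factor gene, at 0.21. Rnf157, a ubiquitin ligase gene, and Epha4, an ephrin receptor gene, both lay at 0.23. The median gene lay at 0.57. Epha4 gave 267, 293 and 322 CPM in maxillary controls, and 84.8, 101 and 143 CPM with the cKO label, the closest in size to H2afv with a log2 fold change of -1.42. Map2 had 54.2 ± 6.04 and 25.5 ± 6.18 CPM, and Meis1 23.4 ± 2.96 and 9.58 ± 2.03 CPM (SD, n = 3 each). These genes were selected for the likeness, so it is a description of the libraries only.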

How the data were processed

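Estimated counts and TPM per gene were deposited by the authors in 1 pair of tables for each tissue. The submitters' processing notes name Salmon 1.1.0, STAR 2.7.0, DESeq2 1.28.1 and build mm10 without their roles, and the transcript index, filters and strand setting are not given in the sources used here. Of 53392 identifiers, 53355 matched GENCODE M21 without version.

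Estimated counts were rounded, and edgeR 4.0.16 in R 4.3.3 (quasi-likelihood test, TMM, default filter on low counts) was fitted to the 6 libraries of each tissue on their own. Benjamini-Hochberg adjustment covered every gene that passed the filter. The genotype was the only term. Standard errors derive from the F statistic. Effective length was tested with limma 3.58.1 where counts reached 50. The labels give the 3 samples of a group as biological replicates. The members and gene lists were chosen with earlier results of these data known.

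Named genes were the members, Srsf3, 3 neighbours on each side of H2afv, the extremes of each histone list in the maxillary process (mean of at least 5 CPM) and the 5 genes nearest in profile, of which 1 is not reported here. Older symbols were matched through the RefSeq table. The edgeR, DESeq2 and effective-length limma fits were tested on simulated data with 200 changed genes, and the other alternatives were not. In these data edgeR recovered 56% (palatal shelf) and 61% (maxillary process) of 2-fold changes. Of its calls 7 of 149 and 9 of 159 were false, against 24 of 169 and 29 of 185 for DESeq2. The limma fit recovered 88.5% and 77.5% of shifts of 0.6 on the log2 scale. Alternatives were other size factors, no filter, a replicate block, DESeq2 1.42.0, limma on log2 TPM (pseudocount 1 or 0.1), and leaving out each library.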

Additional observations from a re-analysis of the deposited data

How the results depend on the processing

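The number of genes past an FDR of 0.05 in the palatal shelf was 0 in edgeR (354 at an unadjusted p under 0.05) and in all alternatives except DESeq2, which gave 4. In the maxillary process it was 12 (8 higher, 4 lower), 143 without a filter on low counts (86 higher, 57 lower), 40 with the replicate block (22 higher, 18 lower) and 376 with DESeq2 (222 higher, 154 lower). Leaving out 1 library gave 2 to 29 genes. The count was 6, 2 and 3 when control 1, 2 or 3 was omitted, and 29, 4 and 10 when cKO-labelled library 1, 2 or 3 was. The cause was not tested. Whether same-numbered libraries form pairs was not settled by the data. Correlations of their deviations were 0.53, 0.22 and -0.22 in the palatal shelf and 0.08, 0.11 and 0.23 in the maxillary process. Libraries of unlike number ran from -0.57 to 0.40 and from -0.23 to 0.14, and not every library correlated best with its own number. Y-linked transcripts were present in library 1 of both maxillary groups only. In the palatal shelf they were present in wild-type library 3 and PI3K library 1. The replicate block gave 0 genes in the palatal shelf and an H2afv log2 fold change of -1.50 in the maxillary process.

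All 6 members stayed on the same side of the threshold in the palatal shelf in the 12 alternatives. There the sign of H2afx (-0.09 to 0.17), H2afy (-0.17 to 0.05) and H2afy2 (-0.04 to 0.13) was not stable, and H2afv ran from 0.05 to 0.29. In the maxillary process H2afv ran from -1.56 to -1.42, and it was no longer past the threshold without control library 2 (-1.49). Since that comparison chose H2afv, nothing is read from the threshold for H2afv there. The difference in its share of H2A.Z ran from -18.4 to -13.8 percentage points. Without centring on the median gene, the effective length shifts of the members in the maxillary process became 0.10 (H2afj) to 0.30 (H2afy), that of H2afv 0.24, so that the signs of H2afj, H2afv and H2afz turned. With 3 libraries a group, the palatal intervals set what could be detected.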
